A study of Mus musculus with 2 samples.

Results

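Mitotic mesenchyme is the set of pancreatic mesenchymal cells that carried many transcripts of the late cell cycle. A cell was counted as gated mesenchyme when its barcode had at least 500 genes, at least 1000 unique molecular identifiers (UMIs, each standing for 1 captured RNA molecule) and at most 10% mitochondrial UMIs, at least 3 UMIs of Col3a1 and Col1a2 together, fewer than 2 each of the epithelial pair Epcam and Cdh1, the mesothelial pair Upk3b and Lrrn4 and the endothelial pair Pecam1 and Cdh5, fewer than 3 UMIs of Lum and none of Isl1. A gated cell was called mitotic when Ube2c, Cenpf, Top2a, Ccnb1 and Hmmr summed to at least 8 UMIs, so the members were chosen by the measured counts of these and the gate's genes. This rule found 456 cells among 3186 gated mesenchymal cells and 6944 barcodes in all. They were compared with the other 2730 gated cells, called below-8 cells here.

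The cells came from mouse pancreas at embryonic day 13.5, strain C57BL/6. The pancreas of 1 control embryo and of 1 embryo titled Knockout, from a design that names it Dpy30∆P, was dissociated with trypsin, sorted for live single cells and sequenced with 10x Genomics 3′ chemistry. Dpy30 encodes a core subunit of the COMPASS complexes that methylate histone H3 on lysine 4. For the control genotype, the Cre driver and the deleted part of Dpy30, the labels state nothing. Each group is therefore 1 library of 1 embryo: no difference between the libraries has a replicate check, no test was possible, and every interval printed covers counting error only.

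A cell that leaves S phase with its DNA copied builds up cyclin B, which activates the kinase Cdk1 and drives entry into mitosis. Condensins and topoisomerase II then compact and untangle the chromosomes, kinetochores attach them to spindle microtubules, and the anaphase-promoting complex (APC/C), with Cdc20 and the E2 enzyme Ube2c, marks cyclin B and securin for destruction so that sister chromatids part. Most of these genes are transcribed late in the cycle, by the MuvB complex with B-Myb and FoxM1 at a promoter element called the cell cycle homology region (CHR) and by NF-Y at CCAAT boxes. In the fetal pancreas, mesenchymal cells surround the branching epithelium and supply signals for its growth, and they themselves multiply through this stage.

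The promoters of the 5 genes that chose the cells are shown because the CHR and CCAAT letters recur in the genes that were high in these cells. The 250 bases before each RefSeq start (build GRCm38.p6) are printed in the direction of transcription. Capitals mark CCAAT and the CHR letters TTTGAA or TTCGAA on either strand, so ATTGG and TTCAAA are the same motifs read on the other strand. The windows lie at chr13:100786487-100786736 on the minus strand for Ccnb1, which encodes cyclin B1, at chr2:164769679-164769928 on the plus strand for Ube2c, at chr11:99024190-99024439 on the minus strand for Top2a, topoisomerase II alpha, at chr1:189688087-189688336 on the minus strand for the kinetochore protein gene Cenpf, and at chr11:40733438-40733687 on the minus strand for Hmmr, which encodes a spindle-associated protein.
Ccnb1: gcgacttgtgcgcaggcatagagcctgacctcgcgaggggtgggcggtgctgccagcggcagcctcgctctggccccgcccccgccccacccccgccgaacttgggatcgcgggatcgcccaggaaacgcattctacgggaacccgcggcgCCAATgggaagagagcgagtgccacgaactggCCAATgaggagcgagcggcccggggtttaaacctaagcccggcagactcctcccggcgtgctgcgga
Ube2c: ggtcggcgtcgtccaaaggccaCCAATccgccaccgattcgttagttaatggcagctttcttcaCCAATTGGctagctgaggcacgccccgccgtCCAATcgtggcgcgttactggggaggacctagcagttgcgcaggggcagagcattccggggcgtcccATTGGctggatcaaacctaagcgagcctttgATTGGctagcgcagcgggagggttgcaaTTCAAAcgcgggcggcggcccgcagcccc
Top2a: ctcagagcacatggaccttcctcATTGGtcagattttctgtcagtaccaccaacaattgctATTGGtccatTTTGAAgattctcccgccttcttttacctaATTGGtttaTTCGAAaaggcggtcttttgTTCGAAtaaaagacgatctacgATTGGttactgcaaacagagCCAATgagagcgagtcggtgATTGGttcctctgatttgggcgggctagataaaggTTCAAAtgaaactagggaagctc
Cenpf: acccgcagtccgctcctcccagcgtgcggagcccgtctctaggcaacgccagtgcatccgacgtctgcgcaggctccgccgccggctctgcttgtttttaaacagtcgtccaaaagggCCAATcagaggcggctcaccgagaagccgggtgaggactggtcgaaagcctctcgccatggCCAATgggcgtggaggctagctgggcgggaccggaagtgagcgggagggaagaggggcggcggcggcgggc
Hmmr: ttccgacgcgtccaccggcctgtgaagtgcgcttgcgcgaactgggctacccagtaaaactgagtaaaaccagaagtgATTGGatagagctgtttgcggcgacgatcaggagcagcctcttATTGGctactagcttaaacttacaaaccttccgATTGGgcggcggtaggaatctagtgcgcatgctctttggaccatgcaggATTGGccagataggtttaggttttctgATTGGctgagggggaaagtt

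Each of the 5 windows held at least 2 CCAAT matches, and the Hmmr window held 5, the nearest 20 bases before the start. The Ube2c window held its CHR letters 29 bases before the start, and the Top2a window held 4 such matches, the nearest 23 bases before it. In Cenpf and Hmmr a match lay 3 and 9 bases after the start, outside the printed stretch, and the Ccnb1 window held none. A match is a description of the letters and not a measured binding site.

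The same letters were counted in all 32851 RefSeq promoter windows, each from 250 bases before to 50 after a start. Of all windows, 19.2% held TTTGAA or TTCGAA, 37.4% held CCAAT and 7.52% held both. Among the 96 genes of the G2/M lists described below, from which the 5 rule genes were left out, 80 had a window, and of their 89 windows 69.7% held the CHR letters, 71.9% held CCAAT and 56.2% held both. For 37 windows of S-phase genes the shares were 18.9%, 64.9% and 13.5%, and for 19 windows of matrix genes 15.8%, 31.6% and 5.26%. Windows of the genes tested for expression below had shares of 13.6%, 37.8% and 5.62%. For the 275 genes at least 2-fold higher in mitotic cells in both libraries, many of them G2/M list genes, they were 54.5%, 64.1% and 39.1%. The CHR letters were thus frequent in the G2/M windows, and CCAAT was frequent in both the G2/M and the S-phase windows. For the CHR letters, the S-phase share was near that of all windows and above that of the genes tested.

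The rule genes were high in the members by construction, so their values describe the cells and support nothing further. The level of Top2a, in CPM (UMIs of the gene in the summed cells, per 1000000 UMIs), was 1118 in mitotic and 37.9 in below-8 cells of the control library, and 1076 and 29.0 in the library labelled knockout. Ube2c had 888 against 20.2 CPM and 806 against 16.1 CPM in the same order. Ccnb1 had 321 against 7.60 CPM and 295 against 6.89 CPM. Cenpf, the other marker given for these cells, had 593 against 13.8 CPM and 585 against 11.7 CPM. The rule fixed that the members had these transcripts in both libraries.

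The sum of the rule genes had no gap at the limit. No UMI of them was found in 1172 of the 1811 gated control cells and in 870 of the 1375 knockout-labelled cells, while 62 and 45 cells had 4 to 7 UMIs. At the limit itself, 10 control and 5 knockout-labelled cells had 7 UMIs, just outside, and 5 and 12 cells had 8, just inside. The members' median sum was 25 UMIs in the control library, with a highest value of 82, and 23 in the knockout-labelled library, with a highest value of 97. All 5 genes were detected in 121 and 117 members, whereas 1 and 3 members passed on 1 gene alone. Cells just outside the rule already carried the programme: the summed level of the G2/M lists was 8609 CPM in control cells with 4 to 7 rule UMIs and 10681 CPM in those with 8 to 11, against 1886 CPM in cells with none, and 8605, 11092 and 1867 CPM in the knockout-labelled library.

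**Figure D1:**
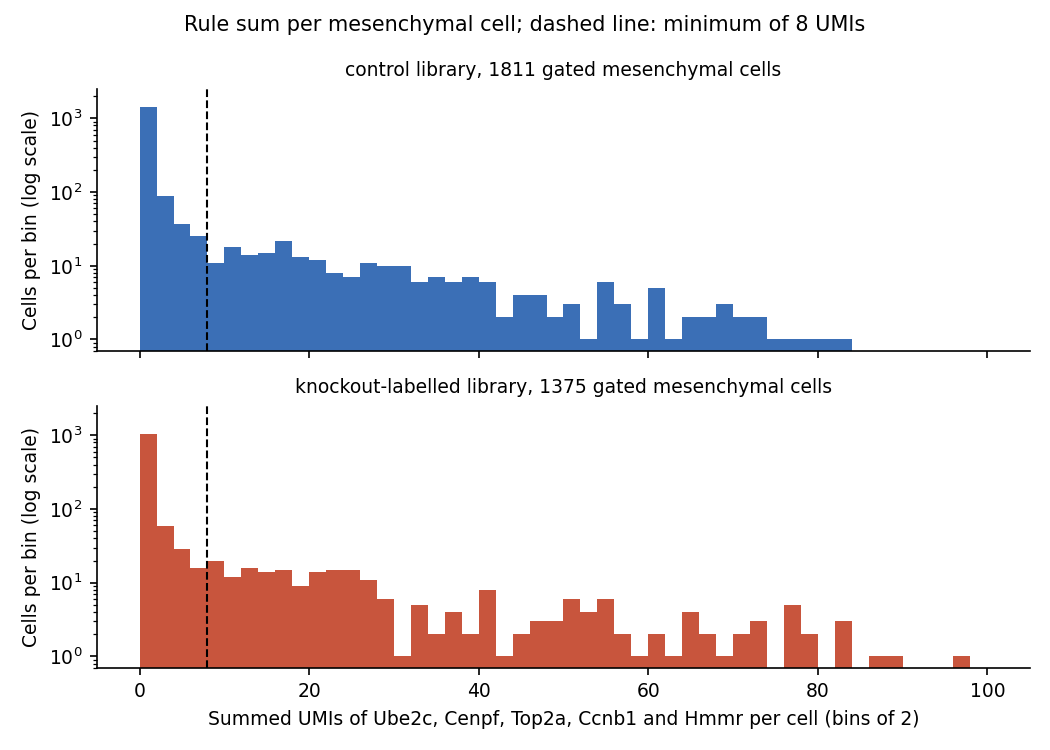
Summed UMIs of the 5 rule genes per gated mesenchymal cell (x axis, bins of 2 UMIs) against the number of cells per bin (y axis, log scale) in the control and knockout-labelled libraries. The dashed line is the minimum of 8 UMIs, and the tail to its right holds the 231 control and 225 knockout-labelled members.

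The 2 libraries held 32702089 UMIs in 3900 barcodes (control) and 28033433 UMIs in 3044 barcodes (knockout-labelled), and 22 barcode sequences occurred in both, 6 of them in a member. The rule counts absolute UMIs, and members were deeper than below-8 cells. Their median was 8842 UMIs (range 3269 to 25876) against 5797 in the control library and 10181 (3087 to 27122) against 6936.5 in the knockout-labelled one. After every cell was thinned at random to 3000 UMIs, the median number of genes was 1339 and 1331 in members and 1276 and 1266 in below-8 cells. Of the members, 6 in each library were called doublets by a simulated-doublet score, 2.60% and 2.67%, against 2.66% and 1.74% of below-8 cells. The embryos differed in sex: Xist had 0 UMIs in control members and 6853 in knockout-labelled members, and the Y-linked Ddx3y had 117 and 0, so sex, library and genotype cannot be told apart. Dpy30 itself had 120 CPM in control members and 135.3 CPM in knockout-labelled members, and 88.5 and 103 CPM in below-8 cells. In epithelial cells, gated by Epcam and Cdh1, it had 224 and 262 CPM. Because the deleted part is not given, these 3′ counts do not check the label.

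Genes that the rule did not use followed it closely. With a pseudocount of 5 CPM on the log2 scale, 275 of 12258 genes tested (2.24%) were at least 2-fold higher in mitotic than in below-8 cells in both libraries, and 4 (0.0326%) were at least 2-fold lower. Genes tested had at least 20 UMIs over the 4 summed groups. The contrast is the one that chose the cells, so these counts describe it. Over all genes tested the median log2 ratio was -0.02 in each library, and 4555 (37.2%) lay below 0 in both. The joined G2/M lists had a median of 3.02 in the control and 2.98 in the knockout-labelled library, with 88 of 96 genes at least 2-fold higher in both.

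Among mitotic cyclins and kinases, 15 of 16 genes were at least 2-fold higher in both libraries, with median log2 ratios of 3.09 and 2.96. Ccna2, the cyclin of S phase and early mitosis, had 208 CPM in mitotic and 9.26 CPM in below-8 control cells, and 207 and 8.98 CPM in the knockout-labelled library. Plk1, a kinase of mitotic entry and spindle assembly, had 141 against 4.16 CPM and 164 against 3.32 CPM. Aurkb, the kinase of the chromosomal passenger complex, had 178 against 3.85 CPM and 144 against 3.81 CPM. All 3 were far higher in members than in below-8 cells, and the libraries lay close to each other. Mastl, a kinase that holds a phosphatase inactive in mitosis, was the exception, at log2 ratios of 0.89 and 1.09.

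The list of the APC/C and the spindle checkpoint was less uniform, with 10 of 14 genes at least 2-fold higher and medians of 2.31 and 2.22. Its activator Cdc20 had 285 against 13.7 CPM in the control and 271 against 13.9 CPM in the knockout-labelled library. The APC/C subunits Cdc16, Cdc23 and Cdc27 had smaller ratios, between 0.27 and 0.96 on the log2 scale. Pttg1, which encodes securin, was the 1 gene of the G2/M lists below 0 in both libraries, with 46.7 against 51.5 CPM and 49.5 against 55.0 CPM. The activator and the checkpoint kinases were thus high in the members, Cdc27 was just short of 2-fold higher with the pseudocount, at 38.5 against 17.4 CPM and 39.7 against 19.3 CPM, and securin was at like levels in both cell groups.

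Of the centromere and kinetochore genes, 21 of 22 were at least 2-fold higher. Birc5, survivin of the passenger complex, had 667 against 37.0 CPM in the control and 625 against 43.0 CPM in the knockout-labelled library. Cdca8, borealin of the same complex, had log2 ratios of 3.98 and 3.90. Zwint, a kinetochore linker, was the lowest of the list at 0.69 and 0.62. Among condensin and mitotic chromosome genes 11 of 13 passed the same fold. Hmgb2, a chromatin protein, was the most abundant, with 2998 against 448 CPM and 3157 against 487 CPM. Mki67, which coats mitotic chromosomes, had 274 against 16.8 CPM and 275 against 15.7 CPM.

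All 22 spindle genes and all 9 cytokinesis genes were at least 2-fold higher in both libraries. Nusap1, which bundles spindle microtubules, had the highest log2 ratio of the 22, at 5.62 and 5.81, from 512 against 5.52 CPM and 510 against 4.18 CPM. Prc1, which crosslinks the microtubules of the central spindle, had 265 against 6.56 CPM and 295 against 4.80 CPM. Tpx2, an activator of Aurora A, had 273 against 14.2 CPM and 262 against 14.1 CPM. Below-8 cells thus had little of these transcripts in either library.

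Outside the lists stood 154 of the 275 genes. Among those with high ratios in both libraries, Cdca3 had log2 ratios of 4.06 and 3.87 and Cdca2 of 3.96 and 3.86. Of the regulators of this programme, 2 of 14 were at least 2-fold higher. They were Foxm1, with 17.0 against 1.25 CPM and 14.5 against 0.984 CPM, and Mybl2, with 18.3 against 4.48 CPM and 23.5 against 3.44 CPM. The NF-Y subunits Nfya, Nfyb and Nfyc had log2 ratios between 0.39 and 0.74. Nuclear envelope genes were split, with 5 of 11 at least 2-fold higher: the B-type lamins Lmnb1 and Lmnb2 and the inner nuclear membrane proteins Lbr, Tmpo and Sun2. Lmna, the A-type lamin, had log2 ratios of -0.23 and -0.39.

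S-phase genes were higher in part. Of 44, 14 were at least 2-fold higher and the medians were 0.66 and 0.57. Rrm2, the regulated subunit of ribonucleotide reductase, had 172 against 29.3 CPM and 163 against 27.5 CPM. The replicative helicase genes Mcm2, Mcm3, Mcm4 and Mcm6 lay below 0 in both libraries, at -0.19 to -0.60. Ung, a uracil glycosylase, was the lowest, at -1.31 and -0.85. Histone genes had medians of 1.77 in both libraries, with 10 of 14 at least 2-fold higher. Hist1h2ap, a replication-dependent H2A gene, had 2299 against 58.6 CPM in the control and 1308 against 25.1 CPM in the knockout-labelled library; its near-identical copies can share reads, so the locus is uncertain. Of the G1 and exit genes, Ccnd2, cyclin D2, had 515 against 783 CPM and 436 against 740 CPM, and Ccng2, an unconventional cyclin, had 55.9 against 13.3 CPM and 72.6 against 15.3 CPM. The list as a whole had medians near 0, at 0.03 and -0.09.

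**Figure D2:**
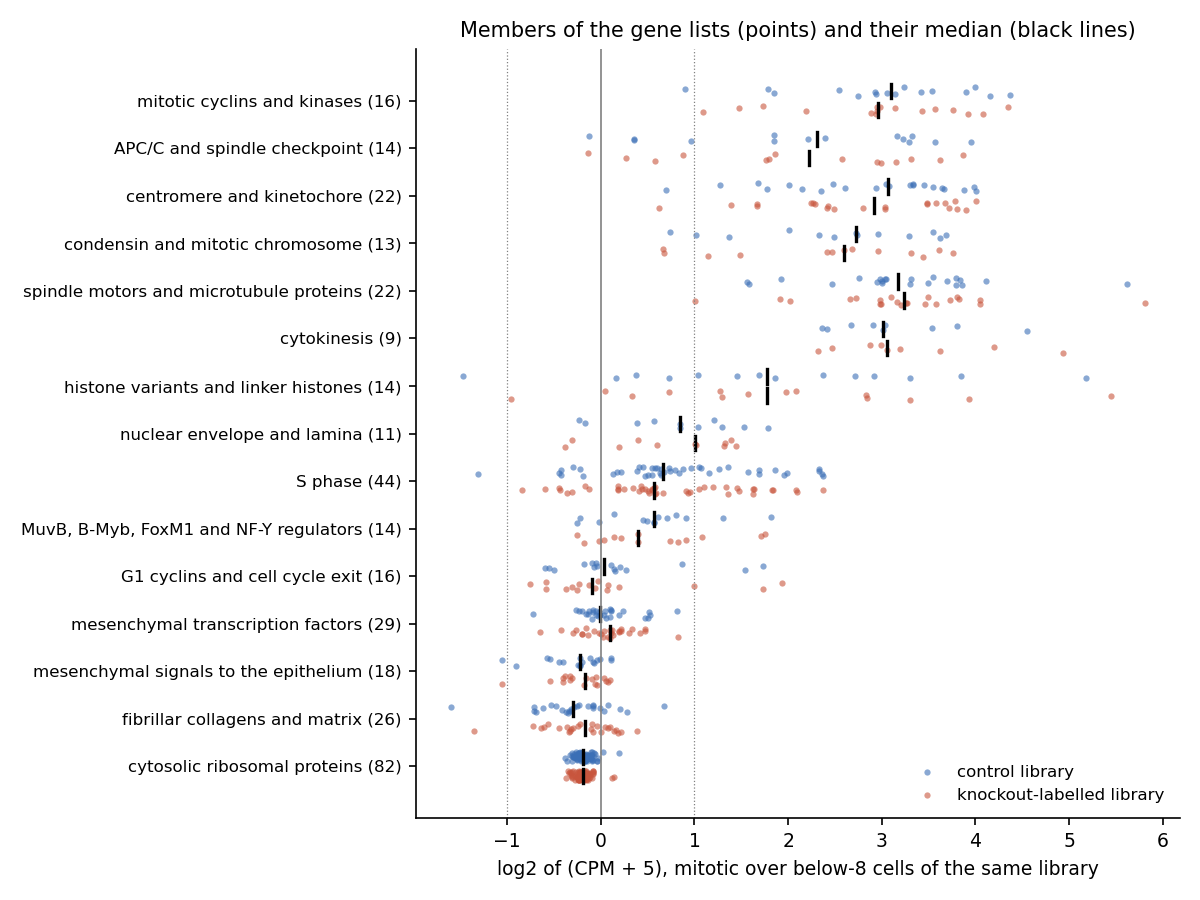
log2 ratio of (CPM + 5) in mitotic over below-8 cells (x axis) for each tested gene of 15 lists (rows, number of tested genes in brackets) in the control and knockout-labelled libraries; points are genes, black lines medians, dotted lines a 2-fold difference. The medians of the 6 G2/M lists lie to the right of both dotted lines, from 2.22 to 3.23, though single members such as Pttg1 and Zwint do not. The medians of the mesenchymal and ribosomal lists lie around 0.

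The members carried mesenchymal genes that the gate did not use. Col1a1 had 540 CPM in mitotic and 658 CPM in below-8 control cells, and 446 and 560 CPM in the knockout-labelled library. Vim, the mesenchymal intermediate filament, had 811 and 863 CPM, then 860 and 945 CPM. Pdgfra had 66.0 and 61.0 CPM, then 65.7 and 67.7 CPM. The transcription factor list had medians of -0.01 and 0.09. None of its 29 tested genes was past 2-fold in both libraries, near the shares over all genes tested, 2.24% higher and 0.0326% lower. Tshz2, its most abundant member, had 1237 and 1492 CPM, then 1277 and 1539 CPM. Of the other markers set for mesenchyme, Pdgfrb had 164 and 157 CPM, then 85.4 and 75.7 CPM. Dcn was lower in members, at 105 and 176 CPM, then 61.5 and 96.4 CPM. Tcf21 was found in 27.7% of control and 29.3% of knockout-labelled members, and Nr2f1 in 6.93% and 11.6%. Both cell groups passed the same collagen gate, so their likeness does not check the label of mesenchyme.

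Matrix genes leaned lower in the members, by less than the counting error of a typical gene in the knockout-labelled library. The median log2 ratio over 26 genes was -0.30 in the control and -0.16 in the knockout-labelled library, and 16 of them lay below 0 in both, beside 37.2% of all genes tested. With the median 95% counting error of a single member around them, these medians spanned -0.58 to -0.02 and -0.45 to 0.13. In the control this span also reached past 0 under other settings, at medians from -0.37 to -0.20. They were a rule minimum of 5 UMIs, members chosen after thinning, doublets removed, a collagen minimum of 10 UMIs and the mean CPM over cells. Thinning served there only to choose the cells, and their levels came from all their UMIs. Mfap4, a microfibril protein, had 199 against 309 CPM and 188 against 314 CPM. Dcn, decorin, had 105 against 176 CPM and 61.5 against 96.4 CPM. Ogn, osteoglycin, was 1 of the 4 genes at least 2-fold lower in both libraries, with 6.41 against 29.6 CPM and 2.56 against 14.4 CPM. The other 3 were Aspn, a related proteoglycan, at log2 ratios of -1.77 and -1.47, Crabp2, a retinoic acid binding protein, at -1.23 and -1.27, and Tmem150a at -1.50 and -1.15. These 3 are named after their values were seen.

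Of the signals to the epithelium, 13 of 18 tested genes lay below 0 in both libraries, beside 37.2% of all genes, with medians of -0.22 and -0.17. Igf1, a growth factor, had 117 against 223 CPM in the control and 80.7 against 173 CPM in the knockout-labelled library. Ptn, pleiotrophin, had 2695 against 3664 CPM and 2497 against 3294 CPM. Cxcl12 had log2 ratios of -1.05 and -0.55. Cytosolic ribosomal protein genes, paralogs included, had a median of -0.19 in each library, and 80 of 82 were below 0 in both, beside the same 37.2%. These medians kept their sign under 2 other scalings of the summed counts. Among other genes of at least 50 CPM, the lowest were Maf, a transcription factor, with 39.8 against 89.1 CPM and 41.4 against 86.9 CPM, and Kdm5b, an H3K4 demethylase, with 62.7 against 119 CPM and 64.5 against 132 CPM. The COMPASS list, by contrast, had small positive medians of 0.26 and 0.13. None of its 18 genes was past 2-fold in both libraries, near the shares of 2.24% higher and 0.0326% lower over all genes. Psip1, a chromatin reader that binds menin, was its highest member, at 0.85 and 0.76.

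The members were not uniform along the cycle. Split by their own Ccnb1 UMIs, 55 control and 48 knockout-labelled members had none, 77 and 82 had 1 or 2, and 99 and 95 had 3 or more; this split was chosen after the values were seen and is a description. The summed level of the S-phase list in the control library was 5969 CPM in members with no Ccnb1 (95% exact Poisson interval 5747 to 6197), 4687 CPM with 1 or 2, and 2613 CPM (2516 to 2712) with 3 or more, against 2307 CPM in below-8 cells. In the knockout-labelled library it was 6041, 4307 and 2517 CPM, against 2384 CPM. Members without Ccnb1 thus had the highest S-phase level, and members rich in Ccnb1 were close to below-8 cells.

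Single genes gave both directions. Ccne2, a cyclin of S-phase entry, went from 118 to 81.6 and 14.2 CPM in the control library and from 181 to 72.3 and 15.0 CPM in the knockout-labelled one. Hist1h2ap went from 3651 to 3232 and 1116 CPM and from 1916 to 1700 and 736 CPM. Both were highest in members without Ccnb1. Cdc20 went the other way, from 94.2 to 125 and 471 CPM and from 73.4 to 160 and 445 CPM. Cenpa, the centromeric histone, went from 195 to 297 and 710 CPM and from 155 to 348 and 643 CPM. Arl6ip1, which encodes an endoplasmic reticulum membrane protein, went from 259 to 408 and 1093 CPM and from 214 to 397 and 1054 CPM. All 3 were highest in the Ccnb1-rich members. Top2a stayed near one level throughout, at 1170, 1132 and 1087 CPM and at 997, 1089 and 1104 CPM. Top2a and Ccnb1 are both rule genes, so members without Ccnb1 had to reach 8 UMIs on the other 4, and the level of Top2a across this split describes the rule. By the genes outside the rule, the set held cells with much S-phase transcript and cells with little. Median depth was also higher at 3 or more Ccnb1 UMIs than at none, 9882 against 8106 UMIs in the control and 11191 against 9888.5 in the knockout-labelled library, and its part in these values was not tested.

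**Figure D3:**
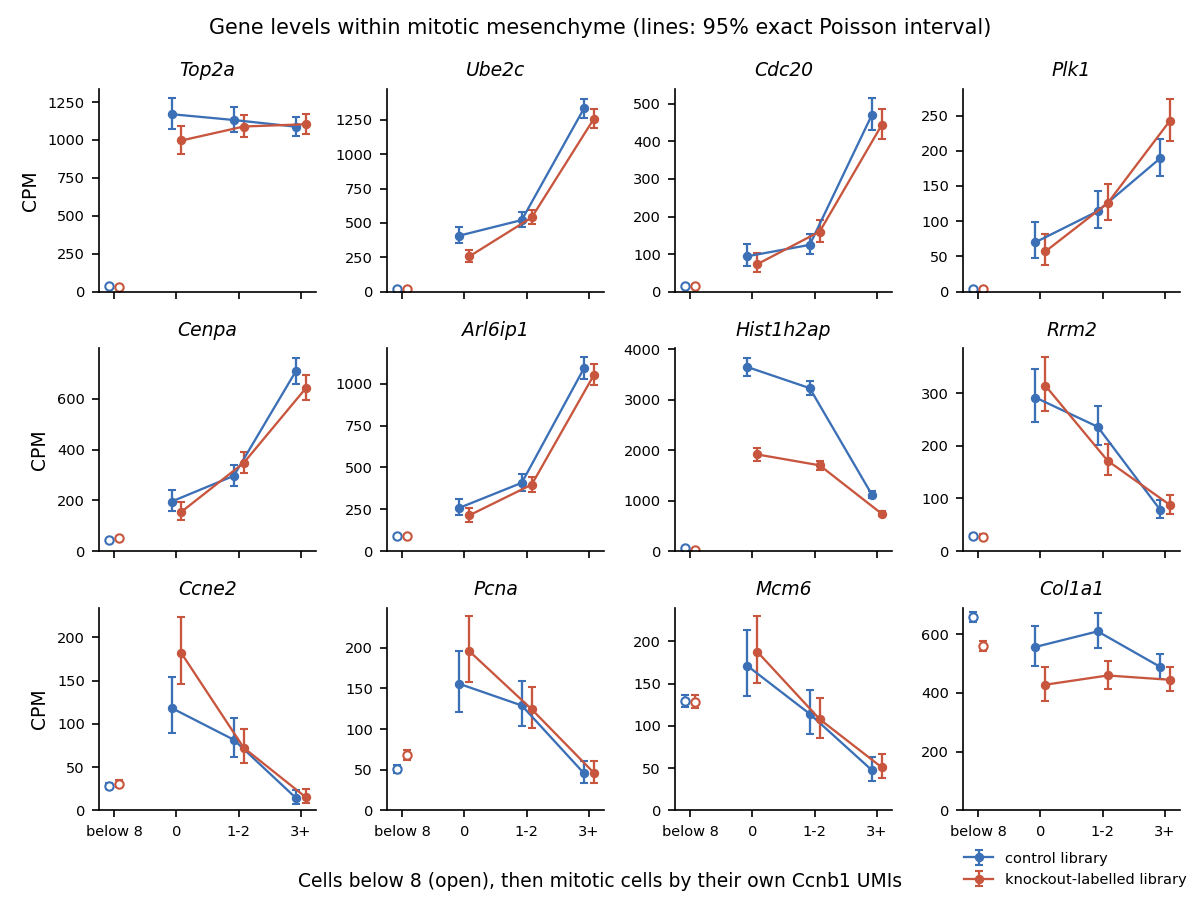
Level in CPM (y axes, each starting at 0) of 12 genes in below-8 cells (open points) and in mitotic cells split by their own Ccnb1 UMIs (filled points: 0, 1 or 2, 3 or more), for the control and knockout-labelled libraries; lines through points are 95% exact Poisson intervals. Cdc20, Plk1, Cenpa and Arl6ip1 are highest at 3 or more Ccnb1 UMIs, Rrm2, Ccne2, Pcna and Mcm6 at none, and Top2a is level.

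The share of gated mesenchyme that met the rule was 231 of 1811 cells in the control library (12.8%, 95% Clopper-Pearson interval 11.3 to 14.4) and 225 of 1375 in the library labelled knockout (16.4%, 14.4 to 18.4). The ratio was 1.28 (1.08 to 1.52, log-normal interval). Gated cells of the second library were deeper, with a median of 7225 against 6003 UMIs. With each cell thinned to 3000 UMIs and a minimum of 4 UMIs, which left out 22 control and 21 knockout-labelled cells, the shares were 12.4% and 14.8% and the ratio 1.20 (1.001 to 1.43). A second random thinning with the same minimum gave 12.9% and 14.9% and a ratio of 1.16 (0.974 to 1.38). With a minimum of 8 UMIs after thinning they were 7.27% and 8.20%, at a ratio of 1.13 (0.885 to 1.44). A collagen minimum of 10 UMIs without thinning gave a ratio of 1.19 (0.899 to 1.56). The ratio was thus smaller at equal depth, and whether its counting interval included 1 depended on the random draw and on the limit.

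Other cells of the same libraries gave other ratios by the same thinned measure. Lum-high mesenchyme had 14.4% in the control and 20% in the knockout-labelled library, a ratio of 1.39 (0.915 to 2.11), and Isl1-positive mesenchyme had 21.8% and 19.6%, a ratio of 0.901 (0.693 to 1.17). Epithelial cells had 23.9% and 11.9%, a ratio of 0.499 (0.372 to 0.669), and mesothelial cells, gated by Upk3b and Lrrn4, had 33.9% and 15.4%, a ratio of 0.454 (0.293 to 0.702). The control shares of epithelium and mesothelium were thus above that of gated mesenchyme, and so were those of Isl1-positive and, by less, Lum-high mesenchyme. In the knockout-labelled library the epithelial share was below the 14.8% of gated mesenchyme. The ratios of epithelium and mesothelium lay on the other side of 1 from that of gated mesenchyme, as did that of Isl1-positive mesenchyme, whose interval included 1. Differences between the gates were not tested. Without thinning, the epithelial ratio was 0.662, and it was 0.990 when the G2/M lists, at 20 UMIs or more, took the place of the rule genes, an alternative chosen after seeing the data.

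**Figure D4:**
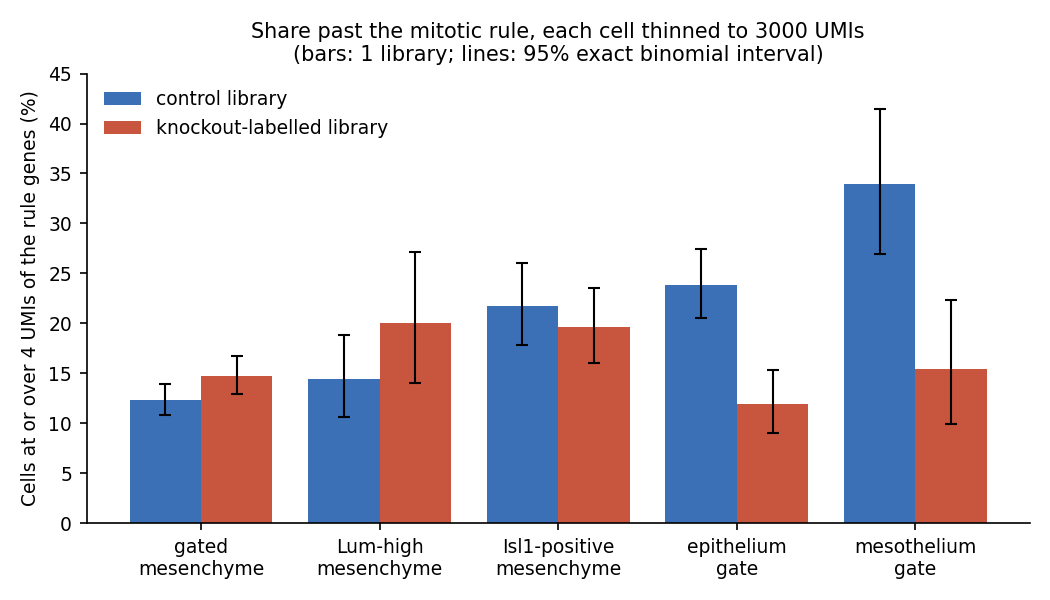
Percent of cells with at least 4 UMIs of the 5 rule genes after thinning to 3000 UMIs (y axis) in 5 gates (x axis), control and knockout-labelled libraries side by side; lines are 95% exact binomial intervals within 1 library. Gated mesenchyme has 12.4% and 14.8%, whereas the epithelium gate has 23.9% and 11.9%.

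Between the libraries, mitotic genes of the members had like levels. Members of both libraries were chosen by the same minimum on genes of this programme, so this likeness describes the rule in part. Of 9410 genes with at least 20 UMIs in members, 179 (1.90%) were at least 1.5-fold higher in the knockout-labelled library and 300 (3.19%) at least 1.5-fold lower. In below-8 cells, summed over more cells, 61 of 11895 (0.513%) were higher and 151 (1.27%) lower. None of the 96 G2/M genes was 1.5-fold higher in members and 1 was lower, Spag5, a spindle and kinetochore protein, with 49.9 CPM in the control and 30.7 CPM in the knockout-labelled library. Beside 1.90% and 3.19% of all genes, these counts leave little to read for a list of 96. The median log2 ratio of the joined G2/M lists was -0.07 in members, beside -0.03 over all genes tested. Over all gated cells, members and below-8 cells together, it was 0.105. The cyclin and kinase list had a median of -0.09 and the cytokinesis list -0.07.

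Other genes had ratios of the same direction in members and in below-8 cells. Scand1 had 41.7 CPM in control and 118 CPM in knockout-labelled members, a log2 ratio of 1.40 (counting SE 0.16), beside 1.05 in below-8 cells. Eif3f, a translation initiation factor subunit, had 167 and 293 CPM, a log2 ratio of 0.79 beside 0.95. Col6a1, a chain of collagen VI, had 157 and 74.7 CPM, a ratio of -1.02 in both cell groups. The first 2 were thus higher and Col6a1 lower in the library labelled knockout, whatever the rule sum. Pdgfrb, a PDGF receptor, had 164 and 85.4 CPM, at -0.91 beside -1.0. Nr4a1, an immediate early gene, had 98.0 and 37.1 CPM, at -1.29 beside -0.97. Mid1, an X-linked ubiquitin ligase, had 56.8 and 6.83 CPM, at -2.38 beside -2.47. These differences were thus carried by members and by below-8 cells alike. Mitochondrially encoded genes had a median of 0.36 in members and 0.31 in below-8 cells, and the median mitochondrial share was 2.01% and 2.38% of UMIs in control and knockout-labelled members.

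A few genes, taken from the ends of a ranking by this difference, had unlike ratios in members and in below-8 cells. Gfod2 had 29.8 and 76.4 CPM in members and 47.9 and 58.2 CPM in below-8 cells, a log2 ratio of 1.23 (counting SE 0.18) beside 0.26. It was found in only 10.8% of control and 18.7% of knockout-labelled members, and a single member held 18.5% and 21.2% of its UMIs there. Igfbp5, which binds insulin-like growth factors, had 34.3 and 65.3 CPM, at 0.84 beside 0.20, with 10.7% and 10.5% of its UMIs from a single member. Tomm70a, a mitochondrial import receptor, had 29.8 and 52.1 CPM, at 0.72 beside 0.07. Lockd, a noncoding RNA next to Cdkn1b, had 352 and 277 CPM in members and 18.8 and 24.6 CPM in below-8 cells, at -0.34 beside 0.31. Each rests on 1 library a group, and the counting SE does not cover UMIs gathered in few cells.

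Among the ranked genes of at least 50 CPM, the lowest ratios lay with markers of blood cells. S100a8 and S100a9, which encode neutrophil calprotectin, had 387 and 244 CPM in control members and 2.13 and 3.84 CPM in knockout-labelled members. The immune list, 9 genes, summed to 206 CPM in control and 19.6 CPM in knockout-labelled members, with all 9 detected in the first and Ptprc, C1qc, Csf1r, Tyrobp and Fcgr3 at 0 in the second. In 2 control members the list had 247 and 134 UMIs. The erythroid list summed to 174 and 5669 CPM, and 1 knockout-labelled member held 12457 of its UMIs. With these 3 members left out, an alternative chosen after seeing the data, S100a8 moved from -5.78 to -2.14 on the log2 scale, S100a9 from -4.81 to -1.36, Stfa1 from -4.17 to -0.12, Apoe from -1.81 to -0.07 and Lyz2 from -1.74 to -0.26. Col6a1 stayed at -1.01 and Nr4a1 at -1.31.

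Among markers of the other lineages, Epcam, Cdh1, Upk3b, Lrrn4, Pecam1 and Cdh5 were kept low by the gate itself. The 12 epithelial markers summed to 107 and 67.5 CPM, the 7 mesothelial markers to 35.7 and 28.2 CPM, with Msln at 0 in both and Muc16 at 0 in the control, and the 9 endothelial markers to 35.3 and 31.2 CPM, with Tie1, Emcn, Cldn5 and Esam at 0 in the knockout-labelled library. Without the 6 gate genes, these lists summed to 103 and 62.8 CPM over 10 epithelial, 33.4 and 25.6 CPM over 5 mesothelial and 33.0 and 30.3 CPM over 7 endothelial markers. The 10 neural crest markers summed to 27.9 and 32.4 CPM, with Foxd3, Phox2a and Ret at 0 in both libraries and Sox10 at 0 in the control. No member held 20 UMIs of any of these 4 lists. A count of 0 allows a level of up to 1.37 CPM in control and 1.28 CPM in knockout-labelled members, taken as 3 UMIs of the summed total.

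**Figure D5:**
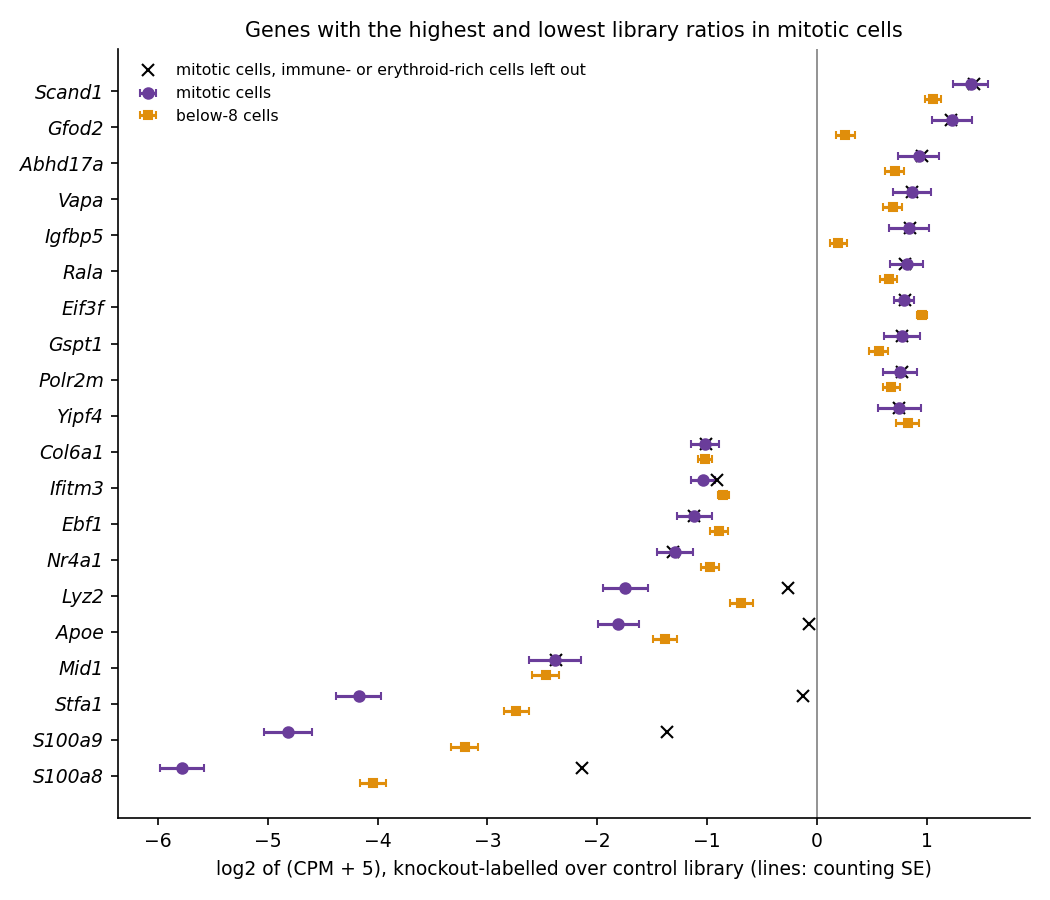
log2 ratio of (CPM + 5), knockout-labelled over control library (x axis), for the 10 genes with the highest and the 10 with the lowest ratio in mitotic cells (rows); circles are mitotic cells, squares below-8 cells, lines 1 counting SE, crosses mitotic cells without the 3 immune- or erythroid-rich members. Only genes of at least 50 CPM in members of a library were ranked. Ribosomal, mitochondrial, haemoglobin, sex-marker and unnamed genes were left out of the ranking. Among the genes shown Scand1 is highest at 1.40, and the crosses of Stfa1, Apoe and Lyz2 lie near 0, at -0.12, -0.07 and -0.26.

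The authors' deposited table lists marker genes of 7 clusters in which the epithelial gene Epcam, listed for clusters 1 and 4, was found in 81.8% and 89.9% of cells and in 98.0% of the others. In the authors' deposited table, cluster 2 had all 5 rule genes as positive markers, with Ube2c in 100% of its cells and in 36.0% of other cells. Of the 218 positive genes of that cluster in the authors' deposited table that were tested here, 140 (64.2%) were among the 275 genes at least 2-fold higher in mitotic mesenchyme, 50.9% of the latter. Cluster 5 of the authors' deposited table shared 60 of 196 (30.6%) and cluster 6 shared 32 of 176 (18.2%). Clusters 1 and 4 in the authors' deposited table shared 4 of 847 (0.472%) and 1 of 562 (0.178%). Clusters 3 and 7 in the authors' deposited table shared none of 107 and 97. The share over all genes tested was 2.24%, so lists as short as those of clusters 3 and 7 leave little to read from a count of 0. Nusap1, Prc1 and Plk1, high in mitotic mesenchyme, were in 97.1%, 97.1% and 94.2% of the cells of cluster 2 in the authors' deposited table. In other cells of the authors' deposited table they were in 16.3%, 20.6% and 15.6%. Which cells were clustered is not stated, but most held Epcam, which the mesenchyme gate kept low. The overlap thus sets mesenchyme beside mostly Epcam-positive cells and is no match to a mesenchymal cluster.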

How the data were processed

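Single-cell RNA was measured in 2 mouse embryonic pancreas libraries, 1 control and 1 labelled knockout. The authors deposited a matrix of UMI counts per gene and barcode for each library, not normalized. Per the submitters' processing notes, Cell Ranger and Seurat 2 and 3 were used with build GRCm38 (mm10); for the aligner, annotation release and Cell Ranger version, no source used here states a value. The authors' deposited table gives cluster markers as an average natural log fold (the base is not stated and was taken from Seurat's convention), the fraction of cells with the gene, and p-values, which were not used here.

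The members, gene lists and comparisons were chosen with earlier results of these data known. Counts were summed per library and cell group (2183480 and 2342281 UMIs in members), scaled to CPM and compared as log2((CPM + 5)/(CPM + 5)), a scale that understates low genes; Python 3.11.15, numpy 2.4.6 and scipy 1.17.1 were used. Counting SEs came from Poisson error. CPM intervals were exact Poisson, shares exact binomial (Clopper-Pearson), at 95%. With 1 library per group there was no test. Genes needed 20 UMIs. Named genes were the 10 highest and 10 lowest of each contrast among genes of at least 50 CPM, the 5 of each end by the difference of library ratios, and the leading and extreme members of the lists. Ribosomal, mitochondrial, haemoglobin and sex-marker genes and unnamed models were left out of those rankings. Doublets were scored against simulated doublets at 0.8% per 1000 barcodes and kept, with their removal as an alternative. No cluster was named. The summed-count statistics were tried on simulated Poisson counts, the model that the counting SEs assume. That trial checks the calculation and cannot show whether the SEs cover the spread between cells. Alternatives covered the rule's minimum, thinning, filters, gates, pseudocount, scaling and gene minimum. Gene positions follow GRCm38; promoter windows are RefSeq's. A few genes that the naming rule would select are not reported here.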

Additional observations from a re-analysis of the deposited data

Results flagged for a closer look

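Epithelial and mesothelial cells moved against gated mesenchyme in the share that met the mitotic rule. After thinning to 3000 UMIs, the knockout-labelled over control ratio was 0.499 in the epithelium gate and 0.454 in the mesothelium gate. In gated mesenchyme it was 1.20 (1.001 to 1.43), and 1.16 (0.974 to 1.38) with a second random thinning. Isl1-positive mesenchyme also lay below 1, at 0.901 (0.693 to 1.17). The difference between the gates was not tested, since each group is 1 library. Without thinning the rule genes gave 0.662 and 0.449. When the sum of the G2/M lists, at 20 UMIs or more and without thinning, replaced the 5 rule genes, the ratios were 0.990 in the epithelium gate, 0.778 in the mesothelium gate and 1.27 in gated mesenchyme. This alternative was chosen after seeing the data. It changed the genes, the limit and the thinning together, and which of these moved the epithelial ratio was not tested. With the rule genes, thinning and a minimum of 8 UMIs, the epithelial ratio was 0.419 (0.273 to 0.642). By the G2/M lists 73.4% and 72.7% of epithelial cells passed, in the control and knockout-labelled libraries.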

How the results depend on the processing

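Of 147 alternative values over 18 settings, 120 stayed within their interval or within 1.5 times the count and 27 moved. For the list medians that interval was the counting error of a typical single gene, which is wide for a median over a list. Some settings changed nothing for a result: a gene minimum of 1 UMI left the list medians and the 2-fold counts as they were. The tally therefore describes the settings and does not measure robustness. A change of direction could be seen only in the ratio of shares, the list medians and the depth ratio, and none occurred. For the G2/M medians the rule that chose the cells largely fixed the direction. The ratio of shares stayed between 1.13 and 1.29. The control share was 15.0% with a rule minimum of 5 UMIs, 10.1% with 15, 17.4% with a collagen minimum of 10, 7.27% after thinning with a minimum of 8, 14.7% over all mesenchyme whatever Lum and Isl1, and 28.4% with the G2/M lists at 20 UMIs; the knockout-labelled share was 12.4% with a minimum of 15, 20.7% with a collagen minimum of 10, 8.20% after thinning with a minimum of 8, and 36.1% with the G2/M lists. Genes at least 2-fold lower in both libraries numbered 12 with a rule minimum of 15 and 11 with members chosen after thinning but levels from all UMIs. They numbered 12 with a collagen minimum of 10, 52 with a pseudocount of 1 CPM and 0 with 20. Genes at least 2-fold higher numbered 171 with a pseudocount of 20. Genes at least 1.5-fold higher in the knockout-labelled members numbered 380 with a collagen minimum of 10, 431 and 27 with pseudocounts of 1 and 20, and 54 with a minimum of 100 UMIs; those lower numbered 642 and 44 with these pseudocounts and 71 with 100 UMIs. The G2/M medians were 3.77 and 3.71 with a pseudocount of 1 and 2.00 and 2.01 with 20, in the control and knockout-labelled libraries. The collagen minimum leaves fewer cells, and the gene minimum fewer genes; the cause of the other shifts was not tested. The alternatives with the G2/M lists, and without cells rich in immune or erythroid UMIs, were chosen after seeing the data. Leaving out a replicate was not possible with 1 library per group. No paired analysis was possible because each group has 1 sample. Depth limits low genes most, with 2183480 and 2342281 UMIs summed over members.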
